A study of Mus musculus with 6 samples.

Results

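RNA of DN1a/b thymocytes from RBPJ 6 days induced mice was compared with that of the same sorted population from Control mice, to describe what still differed from Control once RBPJ had been switched on for 6 days. The comparison uses 4 of the 6 libraries of the study, 2 in each group, and these were chosen by their group labels alone. Control mice kept RBPJ throughout. The induced mice had been deficient in RBPJ, and its expression was started by doxycycline, injected into the peritoneum at 2 mg/ml and then supplied at 1 mg/ml in the drinking water. All mice were C57BL/6 and were kept free of specific pathogens, and the cells were sorted from the thymus by flow cytometry. The other 2 libraries, RBPJ uninduced, came from mice that lacked RBPJ and are given as values beside the comparison, with no test. The allele removed, the promoter of the inducible construct, the age of the mice, whether Control mice carried the construct or received doxycycline, and how many mice went into a library are not stated in the labels. In each difference below, the history of RBPJ and the drug cannot be told apart. Since nothing says that replicates are separate mice, a p-value here measures only how far such libraries scatter, which may be technical.

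DN1a and DN1b cells are the earliest progenitors in the thymus, double-negative for CD4 and CD8, with high KIT and CD44 and without the interleukin 2 receptor alpha chain CD25. They still hold myeloid, dendritic, mast cell and innate lymphoid potential. When a Notch receptor binds a ligand on thymic epithelium, its intracellular domain is cut free, enters the nucleus and joins RBPJ and a Mastermind protein on DNA, where genes such as Hes1, Nrarp and Dtx1 are switched on. RBPJ can also hold such sites with co-repressors when the Notch domain is absent. Notch input starts the T-lineage programme through factors such as TCF1, the product of Tcf7, and GATA3.

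Total counts assigned to genes were 12932928 and 5311391 in Control replicates 1 and 2, and 11090902 and 11240828 in the induced libraries. Control replicate 2 stood apart: it had the lowest depth of the 4 and the most genes with at least 1 count, 30343 against 21529 to 24025. Between the Control libraries 156 genes reaching 10 CPM (counts scaled to library size, with TMM factors) differed by more than 4-fold, 151 of them higher in replicate 2, and 17 did so between the induced libraries. The genes higher in Control replicate 2 included 8 of the CD3, receptor constant and later thymocyte list, among them Cd4, Cd8a, Cd8b1, Rag1 and Themis. Results are therefore given also without each Control library. Mitochondrial ribosomal RNA took 9.26% and 10.7% of the counts in Control and 10.2% and 12.4% in the induced libraries.

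Markers of the sorted stage were present in all 4 libraries. Kit, the stem cell factor receptor, had 529 and 388 CPM in Control libraries and 622 and 631 CPM after induction, and Cd44 at 401 and 357 CPM against 351 and 307 CPM. Il2ra, which encodes CD25, was at 31.1 and 16.6 CPM against 29.1 and 38.5 CPM. None of the 3 passed the test.

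Rbpj (ENSMUSG00000039191, mm10 chromosome 5, 53466152 to 53657362, plus strand) was checked first. It had 973 and 412 counts in Control and 2244 and 2178 counts after induction, which is 76.1 and 76.1 CPM against 199 and 203 CPM. The uninduced libraries stood at 28.2 and 30.0 CPM. Rbpj was thus not restored to the Control level but exceeded it in both induced libraries. The log2 fold change was 1.40 (SE 0.134, adjusted p = 0.00309), and the ratio of mean CPM was 2.64. Reads can be shared with a near-identical processed pseudogene, Rbpj-ps3, on the minus strand of chromosome 6 from 46529354 to 46530794. Its 1441 bases align to the Rbpj transcript with 4 mismatches. Rbpj-ps3 had 31 and 21 counts in Control, 778 and 815 counts after induction and 6 and 4 counts in the uninduced libraries. For the pseudogene the log2 fold change was 4.65 (SE 0.281, adjusted p = 0.000677), and its reads cannot be told apart from misplaced Rbpj reads. Summed over both features, the induced level was 3.45-fold that of Control.

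Of 16430 genes tested, 147 were higher in the induced libraries and 34 were lower at an adjusted p under 0.05, which is 0.895% and 0.207% of the genes tested and 1.10% in all. The median log2 fold change over all genes tested was -0.003. Most differences were large: the median fold was 4.36 among the 147 genes and 2.44 among the 34, and 135 and 26 of them, respectively, differed by more than 2-fold. In each of the 181 genes the 2 groups did not overlap, as was also so for 39.2% of all genes tested. An unadjusted p under 0.05 was reached by 1808 genes. Without either of the induced libraries no gene passed in the quasi-likelihood fit of edgeR, while 877 genes (without replicate 1) and 737 genes (without replicate 2) had an unadjusted p under 0.05. Without Control replicate 1 there were 216 higher and 178 lower genes, and without Control replicate 2 there were 534 and 279. With all 6 libraries in the fit, which then shares its spread with the uninduced group, 49 of the 147 and 6 of the 34 genes passed, and genes described below that did not are named there.

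**Figure D1:**
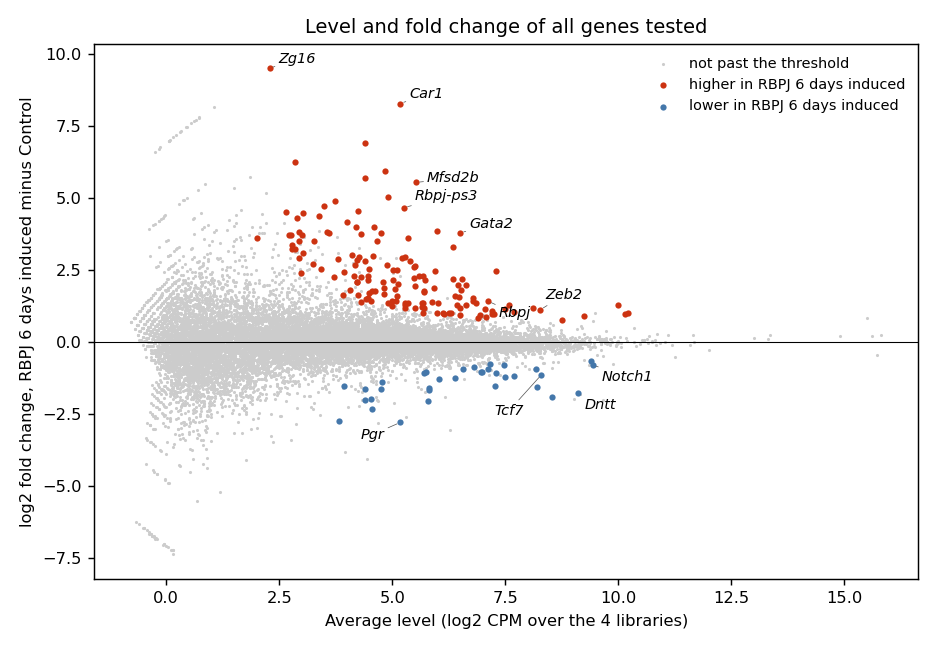
Average level (log2 CPM over the 4 libraries, x axis) against log2 fold change of RBPJ 6 days induced minus Control (y axis) for the 16430 genes tested, with the 147 higher genes in red and the 34 lower genes in blue. The red points reach far larger fold changes than the blue ones, and Dntt and Notch1 are among the lower genes with a high level.

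The Notch targets did not stand on one side of Control. Of 14 listed genes 11 could be tested, 2 were lower and none was higher, against 0.207% lower over all genes. Hes1, a repressor of the basic helix-loop-helix family (ENSMUSG00000022528, chromosome 16, 30064384 to 30067796), stood at 136 and 99.1 CPM in Control, 53.4 and 45.5 CPM after induction and 1.39 and 6.80 CPM in the uninduced libraries. Both induced libraries were below both Control libraries and above both uninduced ones. The log2 fold change against Control was -1.27 (SE 0.191, adjusted p = 0.0209). Notch1, which encodes the Notch receptor of early thymocytes and is itself a Notch target (ENSMUSG00000026923, chromosome 2, 26457903 to 26516663), stood at 949 and 816 CPM in Control, 523 and 483 CPM after induction and 97.7 and 68.8 CPM in the uninduced libraries. Its log2 fold change was -0.81 (SE 0.132, adjusted p = 0.0288), so the induced level was 0.569 of that in Control.

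The other 9 tested Notch targets did not pass, and 8 of the 11 fold changes were above 0, with a median of 0.34. Nrarp, a feedback inhibitor that binds the Notch complex, stood at 22.4 and 14.95 CPM in Control and 29.2 and 28.8 CPM after induction (0.55, adjusted p = 0.454), and Dtx1, a ubiquitin ligase of the Deltex family, at 22.5 and 21.2 CPM against 51.3 and 25.1 CPM (0.80, adjusted p = 0.44). For both genes the induced libraries lay above the Control libraries, by an amount that the test did not separate from the spread. Notch3 was at 7.59 and 15.1 CPM against 8.62 and 11.5 CPM, with a log2 fold change of -0.00. Cd7, a surface protein of early T cells, was at 0.34 (adjusted p = 0.721), Il2ra at 0.39 (adjusted p = 0.711), Myc at 0.17 (adjusted p = 0.87) and Lmo4, a LIM-domain adaptor, at 0.86 (adjusted p = 0.301). The repressors Hey1 and Hey2, at no more than 6.40 CPM in any of the 4 libraries, were at 0.18 and 0.45 (adjusted p = 0.958 and 0.962). With all 6 libraries in the fit, Hes1 and Notch1 did not pass (adjusted p = 0.205 and 0.214). Neither passed in edgeR with the replicate number as a block (adjusted p = 0.0617 and 0.0973) or without the low-count filter.

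Upstream of the targets, few members differed. Among 25 tested genes for Notch receptors, ligands and their processing, Notch1 was the 1 that passed. The ligand genes Jag2 (24.7 and 38.4 CPM against 12.4 and 15.9 CPM, adjusted p = 0.174) and Dll4 (1.64 and 6.46 CPM against 0.355 and 0.186 CPM, adjusted p = 0.29) and the receptor Notch2 (277 and 225 CPM against 294 and 293 CPM, adjusted p = 0.662) did not pass. None of the 19 tested partners of RBPJ passed in the main edgeR fit. Their median was 0.00 and their range -0.45 to 0.43. Maml3, a Mastermind co-activator, was at -0.45 (256 and 216 CPM against 174 and 174 CPM, adjusted p = 0.244), and Snw1, a nuclear cofactor, at 0.43 (adjusted p = 0.347).

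**Figure D2:**
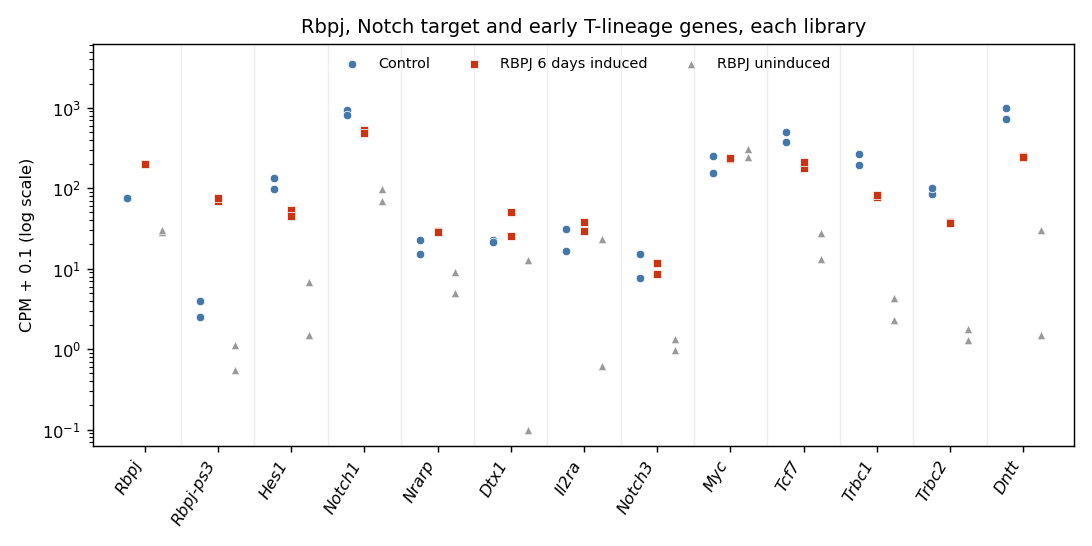
Level in each library (CPM + 0.1, log axis) of Rbpj, its pseudogene Rbpj-ps3, Notch targets and early T-lineage genes in Control (circles), RBPJ 6 days induced (squares) and RBPJ uninduced (triangles). Rbpj is above Control after induction, while Hes1, Notch1, Tcf7, Trbc1, Trbc2 and Dntt lie between the Control and the uninduced libraries.

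Among genes of T-lineage entry, 1 passed the test and was lower after induction. Tcf7, the gene of the first T-lineage factor downstream of Notch (ENSMUSG00000000782, chromosome 11, 52252371 to 52283014), stood at 371 and 500 CPM in Control, 176 and 213 CPM after induction and 13.0 and 27.4 CPM in the uninduced libraries. Its log2 fold change was -1.15 (SE 0.176, adjusted p = 0.0217), or 2.22-fold lower than Control, and it did not pass with all 6 libraries in the fit (adjusted p = 0.177). It was the 1 member of 22 tested T-lineage genes that passed, against 0.207% lower over all genes. Of the 22 fold changes 21 were below 0 and the median was -0.61. The nuclear factor Tox was at 168 and 134 CPM against 83.4 and 95.7 CPM (-0.77, adjusted p = 0.0822), and the surface receptor Cd6 at 20.3 and 36.4 CPM against 8.89 and 7.64 CPM (-1.66, adjusted p = 0.0849). Gata3, a T-lineage factor, was at 46.3 and 34.0 CPM against 36.9 and 37.3 CPM (-0.16, adjusted p = 0.869), after 2.26 and 6.58 CPM in the uninduced libraries.

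Several members of this group differed between the Control libraries. Bcl11b, the commitment factor, was at 5.24 and 137 CPM in the Control libraries and 7.11 and 12.2 CPM after induction, and Lef1 and Thy1 had the same split. Summed over the 22 genes, the level was 1900 and 2408 CPM in Control and 1437 and 1436 CPM after induction. The median was -0.35 without Control replicate 2, with 3 genes lower, and -0.86 without Control replicate 1, with 8 lower. Fewer T-primed cells and less RNA of these genes per cell cannot be told apart in such sorted bulk samples, here or in the groups below.

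Transcripts of the T-cell receptor beta chain were lower. Trbc1 and Trbc2 encode the constant regions of the receptor beta chain and are near-identical copies, so the division of their reads is uncertain. Trbc1 (chromosome 6, 41538218 to 41539881) stood at 265 and 192 CPM in Control, 76.8 and 81.4 CPM after induction and 4.17 and 2.23 CPM in the uninduced libraries (-1.55, SE 0.179, adjusted p = 0.00675). Trbc2 stood at 85.0 and 101 CPM against 37.8 and 36.5 CPM (-1.30, SE 0.168, adjusted p = 0.0107). Of the 19 tested genes of the CD3, receptor constant and later thymocyte list these 2 passed, both lower, against 0.207% lower over all genes. The gamma chain constants Tcrg-C1 (18.2 and 14.0 CPM against 28.0 and 22.4 CPM, 0.59, adjusted p = 0.449) and Tcrg-C4 (4.93 and 3.88 CPM against 8.98 and 9.87 CPM, 1.03, adjusted p = 0.394) lay on the other side of Control and did not pass. The list's median of -0.79 turned to 0.12 without Control replicate 2 and was -1.28 without Control replicate 1, where 10 members were lower. Its summed level was 871.7 and 1350 CPM in Control and 678.6 and 668.9 CPM after induction.

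Dntt, the enzyme that adds untemplated nucleotides at receptor gene junctions (ENSMUSG00000025014, chromosome 19, 41029275 to 41059525), stood at 979 and 727 CPM in Control, 252 and 243 CPM after induction and 1.39 and 30.1 CPM in the uninduced libraries. The induced libraries overlapped with neither of the other groups, and the log2 fold change against Control was -1.79 (SE 0.164, adjusted p = 0.00254). It did not pass with all 6 libraries (adjusted p = 0.31). Of 8 tested gamma-delta T cell genes, Sox13, a factor of that lineage also present in early thymic progenitors, and Blk, a Src-family kinase, were lower. The share lower over all genes was 0.207%. Sox13 was at 40.7 and 32.1 CPM against 12.3 and 6.52 CPM (-1.98, adjusted p = 0.0227) and Blk at 22.3 and 23.4 CPM against 7.82 and 7.82 CPM (-1.54, adjusted p = 0.0433). Neither passed without Control replicate 1 (adjusted p = 0.0623 and 0.0912) or with all 6 libraries (0.0957 and 0.732).

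Outside the lists, Pgr, the progesterone receptor, had the lowest fold change by the naming rule: 73.4 and 52.6 CPM in Control, 11.7 and 6.71 CPM after induction and 5.22 and 1.00 CPM in the uninduced libraries (-2.81, SE 0.290, adjusted p = 0.00391). Tspan9, a tetraspanin, was at -2.75 (23.0 and 26.4 CPM against 3.29 and 3.91 CPM), and Myl10, a myosin light chain, at -2.33 (41.7 and 35.6 CPM against 8.35 and 7.26 CPM). St8sia1, the sialyltransferase that makes ganglioside GD3, was at 97.9 and 79.7 CPM in Control against 16.6 and 26.8 CPM after induction (-2.06). N4bp3 was at 31.9 and 36.2 CPM against 8.62 and 7.64 CPM (-2.04). In the uninduced libraries St8sia1 stood at 0.174 and 1.23 CPM and N4bp3 at 2.78 and 10.1 CPM. The remaining genes of that rank were Cnn3, a calponin (-1.67), and Als2cl (-1.65). Cnn3 stood at 83.6 and 86.9 CPM against 24.5 and 28.8 CPM, and its uninduced level of 19.8 and 31.2 CPM spanned the induced one. Myl10, N4bp3 and Als2cl did not pass with all 6 libraries (adjusted p = 0.0795, 0.0957 and 0.0713).

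Nr4a1, an immediate early gene that responds to receptor signals, stood at 415 and 763 CPM in Control, 140 and 164 CPM after induction and 10.95 and 68.3 CPM in the uninduced libraries (-1.94, SE 0.265, adjusted p = 0.0140). It was the 1 of 21 immediate early and heat shock genes that passed. The list's median was -0.12 (0.06 without Control replicate 2), with Fos at 319 and 267 CPM against 497 and 328 CPM (0.49, adjusted p = 0.419) and Egr1 at 508 and 555 CPM against 490 and 414 CPM (-0.23, adjusted p = 0.604). Chosen after their values were seen, the MAP kinase phosphatases Dusp5 (365 and 525 CPM against 169 and 128 CPM, -1.57), Dusp2 (246 and 183 CPM against 103 and 98.8 CPM, -1.11) and Dusp6 (123 and 128 CPM against 71.7 and 57.2 CPM, -0.96) were lower, 3 of 17 tested Dusp genes. Over all genes tested 0.207% were lower. The kinase gene Pim1 (368 and 396 CPM against 198 and 195 CPM, -0.96), the cytokine gene Tnf (71.3 and 100.05 CPM against 32.3 and 22.3 CPM, -1.61) and the nuclear NF-kappa-B inhibitor Nfkbid (167 and 174 CPM against 88.2 and 75.3 CPM, -1.06) passed as well and were chosen in the same way. None of these 6 genes passed with all 6 libraries in the fit, nor did Nr4a1 (adjusted p from 0.0957 to 0.483).

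Among the lists, that of interferon-induced genes had the most tested members and the most members above Control. Like the other lists, it was chosen with earlier results of these data known, so its counts are a description and no test. Of 36 tested genes 18 were higher and none was lower, against 0.895% higher over all genes, 35 of the 36 fold changes were above 0 and the median was 1.30. These genes encode antiviral sensors, effectors and regulators that type I and type II interferons switch on through STAT and IRF factors. Summed over the 36 genes the level was 956.2 and 1062 CPM in Control, 2285 and 2127 CPM after induction and 881.1 and 1289 CPM in the uninduced libraries. The uninduced sums thus spanned those of Control, a description of these libraries without a test.

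Among the sensors, Oasl2, an oligoadenylate synthase-like protein (chromosome 5, 114896936 to 114912234), stood at 29.7 and 29.5 CPM in Control, 140.05 and 126 CPM after induction and 23.1 and 33.0 CPM in the uninduced libraries (2.16, SE 0.163, adjusted p = 0.00161). Oas2 and Oas3, which make the messenger that activates RNase L, were at 28.5 and 22.5 CPM against 90.5 and 100.5 CPM (1.86) and at 26.5 and 19.2 CPM against 84.2 and 77.5 CPM (1.76). Ifih1, which encodes the RNA sensor MDA5, was at 31.8 and 42.1 CPM against 98.0 and 83.6 CPM (1.35, adjusted p = 0.0173). Zbp1, a sensor of left-handed nucleic acid, was at 6.42 and 6.83 CPM against 36.6 and 37.9 CPM (2.51, adjusted p = 0.00391).

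Among the effectors, Ifi44 (chromosome 3, 151730922 to 151749960) stood at 17.5 and 16.8 CPM in Control, 85.8 and 83.3 CPM after induction and 9.56 and 13.2 CPM in the uninduced libraries (2.29, SE 0.182, adjusted p = 0.00203). Slfn5, a Schlafen-family protein, was at 17.1 and 13.1 CPM against 75.7 and 70.6 CPM (2.22, adjusted p = 0.00254). Ifit1, which binds foreign RNA caps, was at 10.7 and 9.78 CPM against 42.0 and 46.1 CPM (2.08), and the interferon-inducible GTPase Iigp1 at 5.32 and 5.35 CPM against 45.8 and 37.5 CPM (2.96). The dynamin-like GTPases Mx1 and Mx2 were at 2.28 and 1.61, and Rsad2, the radical enzyme viperin, at 2.07 (8.22 and 4.799 CPM against 36.8 and 22.8 CPM, adjusted p = 0.0435, and 2.72 without Control replicate 1). Ifi27l2a had a low level, 1.17 and 1.48 CPM against 12.7 and 10.7 CPM (3.20), and in the uninduced libraries it stood at 10.1 and 14.6 CPM.

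Among the regulators, Irf7, the factor that amplifies type I interferon (chromosome 7), stood at 16.0 and 16.6 CPM in Control, 88.2 and 70.5 CPM after induction and 6.95 and 35.4 CPM in the uninduced libraries (2.29, SE 0.211, adjusted p = 0.00254). It is also a plasmacytoid dendritic cell gene, and was the 1 of 11 in that list that passed. Usp18, a brake on the interferon receptor, was at 10.2 and 13.1 CPM against 33.0 and 30.9 CPM (1.52, adjusted p = 0.029). The signalling genes Stat2 (0.21, adjusted p = 0.749) and Irf9 (0.46, adjusted p = 0.368) did not pass, nor did Isg15 (8.22 and 6.46 CPM against 25.1 and 18.5 CPM, 1.51, adjusted p = 0.0822). The interferon genes Ifng and Ifna4 themselves had no more than 6.18 CPM in any of the 4 libraries: Ifng stood at 6.18 and 4.61 CPM in Control and 1.87 and 1.21 CPM after induction, and Ifna4 had counts in 2 of the 4. Both were chosen after their values were seen.

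**Figure D3:**
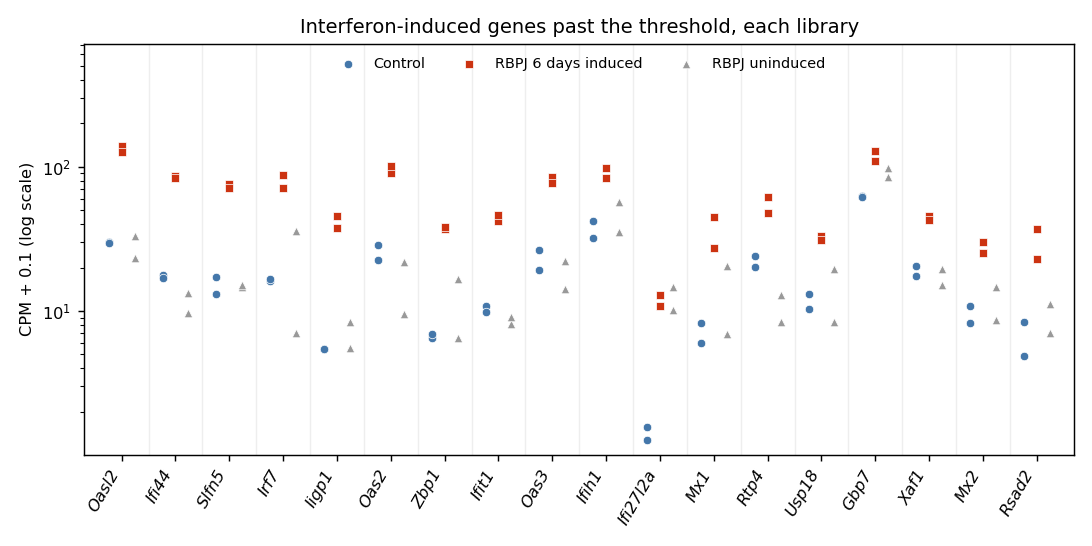
Level in each library (CPM + 0.1, log axis) of the 18 interferon-induced genes past the threshold in Control (circles), RBPJ 6 days induced (squares) and RBPJ uninduced (triangles). In all 18 genes both induced libraries lie above both Control libraries. The 2 groups do not overlap in any of the 181 genes past the threshold, nor in 39.2% of all genes tested.

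Antigen presentation genes of class I, chosen after their values were seen, were higher too. Of 15 tested H2-K, H2-D, H2-Q, H2-T and H2-M genes 9 passed, against 0.895% higher over all genes. None was lower and the median was 1.01. H2-K1 was at 437 and 404 CPM against 804 and 759 CPM (0.89, adjusted p = 0.0144) and H2-D1 at 328 and 309 CPM against 571 and 512 CPM (0.76, adjusted p = 0.0309). H2-Q6 (43.9 and 55.7 CPM against 250.4 and 275 CPM) and H2-Q7 (33.2 and 34.5 CPM against 149 and 154 CPM) had larger fold changes of 2.44 and 2.17, but are near-identical copies that can share reads, as can others of the family. Their activator Nlrc5 was at 110.01 and 79.7 CPM against 191 and 210.2 CPM (1.05, adjusted p = 0.029). H2-K1, H2-D1 and Nlrc5 did not pass with all 6 libraries (adjusted p = 0.131, 0.135 and 0.115). Of the 9 class I genes, H2-Q4, H2-T22, H2-T23 and H2-Q5 did not either (adjusted p = 0.207, 0.234, 0.158 and 0.412). Trim30 genes, 3 of 5, Ifi200 genes, 2 of 10, and Naip genes, 2 of 4, were higher by the same choice, beside the same 0.895%. Of these, Trim30a, Trim30d, Ifi213 and Ifi206 did not pass with all 6 libraries (adjusted p = 0.05995, 0.06155, 0.228 and 0.345). Of 10 class II presentation genes, H2-Ab1 was higher (10.95 and 14.8 CPM against 31.5 and 33.2 CPM, 1.40, adjusted p = 0.0412, and 1.21 without Control replicate 1). It did not pass with all 6 libraries (adjusted p = 0.915), with upper-quartile scaling, without the low-count filter or in the legacy quasi-likelihood fit.

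Of the interferon-induced list, 16 genes passed without Control replicate 1 and 31 without Control replicate 2, with medians of 1.25 and 1.48. Ifi27l2a, Usp18, Xaf1 and Mx2 did not pass without Control replicate 1. With all 6 libraries in the fit 9 of the 18 passed, and Irf7, Ifih1, Mx1, Mx2, Rsad2 and Usp18 were among those that did not (adjusted p from 0.0947 to 0.194). Markers of other cells the sort could hold were summed beside this. Macrophage genes summed to 6.03 and 25.5 CPM in Control and 14.5 and 16.7 CPM after induction, with none of 6 tested members past the threshold. Conventional dendritic cell genes summed to 981 and 741.7 CPM against 823 and 834.9 CPM, with none of 10 past it. Most of each sum came from Wdfy4 (601 and 438 CPM against 416 and 475 CPM), so the sums say little of the other members. Of the 10 fold changes 7 were above 0, with a median of 0.21, and Itgae was at 1.94 (adjusted p = 0.167). B-lineage genes summed to 297.2 and 495.3 CPM against 228.7 and 273.8 CPM, with none of 14 past the threshold and Vpreb2 at 0 in all 4 libraries. Rag1 carried the difference in the B-lineage sums (16.1 and 268 CPM against 13.0 and 17.0 CPM). Of the 14 fold changes 11 were above 0, with a median of 1.24, and without Control replicate 2 the median was 3.34 with 4 members higher. The part of other cells in the interferon difference was not tested.

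Promoter sequences are shown for 4 of the interferon-induced genes because the core of the interferon response element, to which STAT and IRF factors bind, can be read in them. The core was searched as GAAANNGAA on both strands in the RefSeq promoter table of GRCm38.p6, from 250 bases before to 50 bases after each start. The core was present in 8.88% of the 10879 tested genes with an entry and in 8.56% of all 32851 promoters. Among genes with an entry, 37 of the 109 that were higher after induction held it (33.9%), and 3 of the 27 that were lower (11.1%). Of the 18 higher genes of the interferon-induced list 10 had an entry, and 7 of these 10 held it. Of the genes of the list that did not pass, 16 had an entry and 10 of these 16 held it. The sequences are the 160 bases before the start in the gene's direction, 5′ to 3′, with matches to the core on either strand in capitals; overlapping matches run together. Slfn5 lies at chr11:82951942-82952101 on the plus strand, Ifit1 at chr19:34640729-34640888 on the plus strand, Oas3 at chr5:120777660-120777819 on the minus strand and Ifih1 at chr2:62646256-62646415 on the minus strand.
Slfn5: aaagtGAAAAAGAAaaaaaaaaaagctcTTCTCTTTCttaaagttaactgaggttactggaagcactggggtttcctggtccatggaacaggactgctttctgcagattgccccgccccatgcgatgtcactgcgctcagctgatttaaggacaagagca
Ifit1: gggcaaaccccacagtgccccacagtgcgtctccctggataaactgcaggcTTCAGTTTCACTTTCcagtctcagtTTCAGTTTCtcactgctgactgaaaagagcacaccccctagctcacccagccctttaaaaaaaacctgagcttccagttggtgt
Oas3: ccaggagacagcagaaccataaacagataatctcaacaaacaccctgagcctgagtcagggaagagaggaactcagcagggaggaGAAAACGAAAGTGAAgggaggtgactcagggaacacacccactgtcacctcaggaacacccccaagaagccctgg
Ifih1: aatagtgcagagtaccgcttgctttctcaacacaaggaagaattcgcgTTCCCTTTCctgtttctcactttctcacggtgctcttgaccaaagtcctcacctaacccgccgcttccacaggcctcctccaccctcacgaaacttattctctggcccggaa
Ifit1 holds 3 matches, Slfn5 and Oas3 hold 2 each and Ifih1 holds 1. The RBPJ core TGGGAA, searched in the same way, was in 26.7% of the tested genes, in 33.0% of the higher and 22.2% of the lower genes. Its longer form GTGGGAA was in 7.42%, 8.26% and 7.41%. A match is a description of the letters and says nothing of binding in these cells.

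A second group above Control held progenitor, mast cell, erythroid and megakaryocyte genes. Gata2, a factor of blood stem cells and mast cells (ENSMUSG00000015053, chromosome 6, 88193891 to 88207032), stood at 9.47 and 17.7 CPM in Control, 168 and 166 CPM after induction and 283 and 189.6 CPM in the uninduced libraries. Both induced libraries lay far above both Control libraries, and the log2 fold change was 3.77 (SE 0.237, adjusted p = 0.000764). Of 22 tested stem and progenitor factors 5 were higher and none was lower, against 0.895% higher over all genes. The median was 0.11 (-0.08 without Control replicate 2). Lmo2 and Tal1, which share a complex with GATA factors, were at 53.9 and 61.1 CPM against 151 and 172 CPM (1.505, adjusted p = 0.00391) and at 12.8 and 14.2 CPM against 36.5 and 47.5 CPM (1.66, adjusted p = 0.0209). The homeobox gene Meis1 was at 39.8 and 29.2 CPM against 145 and 136 CPM (1.97, adjusted p = 0.00254). Hlf was at 3.29 and 7.38 CPM against 19.3 and 29.4 CPM (2.41, adjusted p = 0.0415) and did not pass without Control replicate 1 (1.80, adjusted p = 0.0951). Meis1, Tal1 and Hlf did not pass with all 6 libraries (adjusted p = 0.136, 0.0521 and 0.528), while Gata2 and Lmo2 did.

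Other members of the stem and progenitor list did not pass. Spi1, the gene of PU.1, was at 71.7 and 59.6 CPM against 63.4 and 67.8 CPM (-0.03), Mef2c at 340 and 337 CPM against 341 and 333 CPM (-0.01) and Erg at 148 and 118 CPM against 140 and 131 CPM (0.01). Flt3, a cytokine receptor of lymphoid progenitors, was at 173 and 92.1 CPM against 177 and 149 CPM, after 56.2 and 20.7 CPM in the uninduced libraries. A p that misses the threshold does not show that these levels were equal.

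Of 13 tested mast cell and basophil genes 4 were higher and none was lower, against 0.895% higher over all genes. All 13 fold changes were above 0, and the median was 2.94. Il1rl1, which encodes the receptor for interleukin 33, was at 1.02 and 2.58 CPM in Control, 44.6 and 25.5 CPM after induction and 68.5 and 79.0 CPM in the uninduced libraries (4.55, SE 0.532, adjusted p = 0.00577, and 3.84 without Control replicate 1). Ms4a2, the beta chain of the IgE receptor, had 3 counts over both Control libraries and 290 counts over both induced ones, a ratio of 80.2 (95% exact interval from counting error alone 27.2 to 391). It passed with an adjusted p of 0.0153 and did not without Control replicate 1 (adjusted p = 0.051). Cpa3, the mast cell carboxypeptidase that is also present in early progenitors, was at 64.3 and 42.8 CPM against 116 and 136 CPM (1.17, adjusted p = 0.0348). Ms4a2 and Cpa3 did not pass with all 6 libraries (adjusted p = 0.0524 and 0.328).

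The granule protease genes of mature mast cells split the induced libraries. Cma1 was at 1.72 and 0.185 CPM in Control and 25.0 and 1.58 CPM in induced replicates 1 and 2, Mcpt4 at 35.3 and 2.05 CPM in these 2 libraries and Tpsb2 at 20.3 and 0.652 CPM, and none of the 3 passed. In the uninduced libraries Cma1 was at 180 and 143 CPM and Mcpt4 at 94.8 and 61.1 CPM. Summed over the list, the level was 106.5 and 86.8 CPM in Control, 477.9 and 408.4 CPM after induction and 1177 and 805.5 CPM in the uninduced libraries. The list had 9 higher members without Control replicate 2 and 4 without Control replicate 1.

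Erythroid and megakaryocyte genes followed, with 7 of 18 tested genes higher and none lower, against 0.895% higher over all genes. Their median was 2.19, or 1.97 with the 2 members at 0 in Control set to their bounds. Car1, an erythroid carbonic anhydrase (chromosome 3, 14766216 to 14808368), stood at 0.313 and 0 CPM in Control, 91.7 and 50.6 CPM after induction and 110.05 and 287 CPM in the uninduced libraries (8.26, SE 0.713, adjusted p = 0.00203). Without Control replicate 2 it was at 7.78, and without Control replicate 1 no count was left in Control. The alternative fit with limma-voom did not call it. Klf1, the factor of red cell genes, was at 0.313 and 1.85 CPM against 28.4 and 12.7 CPM (4.72, adjusted p = 0.0216), and at 3.56 without Control replicate 1 (adjusted p = 0.0717) and 6.00 without Control replicate 2. Zfpm1, which encodes the GATA partner FOG1, was at 36.7 and 46.3 CPM against 130 and 153 CPM (1.81, adjusted p = 0.00343).

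Of the megakaryocyte members, Itga2b, the platelet integrin alpha chain that marks early progenitors too, was at 16.6 and 21.97 CPM against 61.8 and 79.5 CPM (1.93, adjusted p = 0.00757). Pf4 passed narrowly at 0.469 and 0.738 CPM against 7.73 and 5.77 CPM and did not pass without Control replicate 1 (3.26). On the same 4 libraries it did not pass with RLE or upper-quartile scaling or without the low-count filter. Nor did it pass with limma-voom, the legacy quasi-likelihood or the replicate block. The adult globin gene Hbb-bt was at 5.01 and 2.03 CPM in Control and 1.24 and 1.02 CPM after induction and did not pass (adjusted p = 0.418). The list had 6 higher members without Control replicate 1 and 11 without Control replicate 2, with medians of 1.55 and 3.82. With all 6 libraries 2 members passed, and Zfpm1, Itga2b, Klf1 and Pf4 did not (adjusted p = 0.122, 0.0521, 0.0957 and 0.0795).

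**Figure D4:**
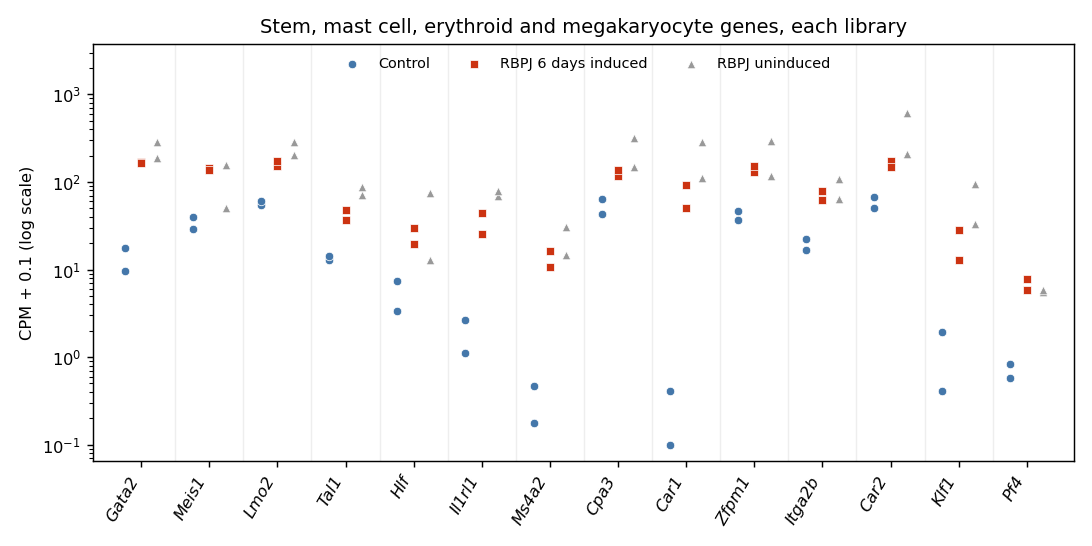
Level in each library (CPM + 0.1, log axis) of 14 stem, mast cell, erythroid and megakaryocyte genes past the threshold in Control (circles), RBPJ 6 days induced (squares) and RBPJ uninduced (triangles). In each gene both induced libraries lie above both Control libraries, as the groups are apart in all 181 genes past the threshold and in 39.2% of all genes tested. Gata2 is at 168 and 166 CPM after induction against 9.47 and 17.7 CPM in Control.

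Among all genes past the threshold, the third highest fold change was that of Gm15915, an antisense gene that the naming rule leaves out as it does all genes not annotated as protein coding. It stood at 0.391 and 0.185 CPM in Control and 51.3 and 29.99 CPM after induction (6.90, adjusted p = 0.00203, and 7.76 without Control replicate 1), and overlaps Ntn4 on the opposite strand, so that without a stated counting strand the reads of the 2 genes cannot be told apart. Of the protein-coding genes outside the lists, Mfsd2b, the exporter of sphingosine 1-phosphate from red cells and platelets (chromosome 12, 4862440 to 4874359), had the smallest p of all: 1.80 and 2.22 CPM in Control, 92.7 and 85.9 CPM after induction and 87.5 and 86.8 CPM in the uninduced libraries (5.53, SE 0.275, adjusted p = 0.000289). Its induced and uninduced levels overlapped. Samd14, a regulator of KIT signals in red cell precursors, was at 0.548 and 1.29 CPM against 43.2 and 37.3 CPM (5.68, and 5.03 to 6.17 without either Control library). Ermap, an erythroblast membrane protein, was at 0.391 and 4.799 CPM against 63.8 and 48.5 CPM (5.01), with 3.63 without Control replicate 1 and 7.13 without Control replicate 2, and DESeq2 did not call it (adjusted p = 0.0573). Ces2g, a carboxylesterase, was at 0.235 and 2.22 CPM against 28.1 and 20.9 CPM (4.86, from 3.54 to 6.64 without either Control library). Ermap and Ces2g did not pass with all 6 libraries (adjusted p = 0.0778 and 0.0985).

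The other two genes of that rank are less secure. Zg16, a lectin-like secretory granule protein, had no counts in Control and stood at 8.62 and 9.22 CPM after induction, at least 22.6-fold higher with a floor of 3 counts per library, and it did not pass without Control replicate 1 (adjusted p = 0.0673). Dct, a melanin synthesis enzyme, was at 0 and 2.95 CPM in the Control libraries and 85.6 and 23.1 CPM after induction (5.92, adjusted p = 0.0345). Its fold change was 4.28 without Control replicate 1 (adjusted p = 0.0637), 12.3 without Control replicate 2, and DESeq2 did not call it (adjusted p = 0.572). Neither Zg16 nor Dct passed with all 6 libraries (adjusted p = 0.0645 and 0.235). Chosen after their values were seen, Apoe, the lipid carrier (9.78 and 24.2 CPM against 151 and 138 CPM, 3.30), Aqp1, a red cell water channel (1.33 and 5.91 CPM against 46.5 and 41.0 CPM, 3.99), Muc13 (40.5 and 40.4 CPM against 142 and 174 CPM, 1.97) and the repressor Zeb2 (193 and 200.5 CPM against 410 and 434 CPM, 1.10) were higher as well. Without Control replicates 1 and 2 in turn, Aqp1 was at 2.97 and 5.03 and Apoe at 2.66 and 3.88, and Muc13 did not pass with all 6 libraries (adjusted p = 0.0678).

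Of 20 myeloid factors and receptors 3 were higher (0.895% over all genes) and none was lower, with a median of 0.80. Irf8, a factor of monocyte and dendritic cell fate, stood at 15.8 and 11.8 CPM in Control and 48.3 and 55.2 CPM after induction (1.84, SE 0.224, adjusted p = 0.00846). The cytokine receptors Csf2rb (23.6 and 20.7 CPM against 52.3 and 56.6 CPM, 1.27) and Csf3r (11.3 and 9.23 CPM against 29.1 and 42.1 CPM, 1.74) also passed. Irf8, Csf2rb and Csf3r did not pass with all 6 libraries (adjusted p = 0.0713, 0.524 and 0.202). Cebpa, the granulocyte and monocyte factor, was at 1.80 and 1.48 CPM against 9.42 and 21.7 CPM, the uninduced libraries being at 24.5 and 27.5 CPM, and missed the threshold (3.17, adjusted p = 0.0648). None of 9 granule protein genes passed, although their median was 2.38: Mpo, myeloperoxidase, had 508 and 439 CPM in Control libraries and 608 and 1299.9 CPM after induction, and Ctsg at 6.57 and 17.2 CPM against 32.4 and 72.6 CPM (adjusted p = 0.0847). Induced replicate 2 was the higher one in 8 of these genes, Elane among them with 20.3 and 96.7 CPM, and 6 of the 9 passed without Control replicate 2.

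Among 19 natural killer and innate lymphoid genes, the activating receptors Klrk1 (1.17 and 2.22 CPM against 25.9 and 15.7 CPM, 3.80, adjusted p = 0.0119) and Ncr1 (0.626 and 1.66 CPM against 11.02 and 15.8 CPM, 3.82, adjusted p = 0.0173) were higher. The share higher over all genes was 0.895%. Ncr1 did not pass without Control replicate 1 (3.08, adjusted p = 0.0881), and with all 6 libraries neither receptor gene did (Klrk1 0.0957, Ncr1 0.153). Zbtb16, the innate lymphoid factor PLZF, was at 10.1 and 2.58 CPM against 29.0 and 28.8 CPM and did not pass (1.91, adjusted p = 0.0631). The cytotoxic genes Gzma, at 0.156 and 4.799 CPM against 1.95 and 2.61 CPM, and Prf1, at 0.548 and 4.98 CPM against 2.58 and 2.42 CPM, stayed low. Of 14 homing and egress receptors 3 were higher, beside 0.895% of all genes tested. Itga6, an integrin chain, was at 24.2 and 35.1 CPM against 69.9 and 71.5 CPM (1.33). Ccr2 was at 6.57 and 8.31 CPM against 21.8 and 21.9 CPM (1.61) and Cx3cr1 at 1.02 and 3.14 CPM against 13.2 and 11.9 CPM (2.91). Ccr2 and Cx3cr1 did not pass without Control replicate 1 (1.48 and 2.08, adjusted p = 0.104 and 0.126), and Cx3cr1 was at 3.61 without Control replicate 2. Itga6, Ccr2 and Cx3cr1 did not pass with all 6 libraries (adjusted p = 0.345, 0.1 and 0.228). On the same 4 libraries, Ccr2 did not pass with RLE or upper-quartile scaling or without the low-count filter. Cx3cr1 did not pass with upper-quartile scaling or in the legacy quasi-likelihood fit.

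Growth and housekeeping groups showed no member past the threshold in the main edgeR fit, though some members passed in other fits. The 20 DNA replication genes had a median of -0.20 and a summed level of 2282 and 1932 CPM in Control, 2002 and 1921 CPM after induction and 3133 and 3370 CPM in the uninduced libraries. Rrm2, a subunit of ribonucleotide reductase, was at 37.3 and 39.9 CPM against 29.8 and 25.1 CPM (-0.48, adjusted p = 0.419) and Mcm5 of the replication licensing complex at 178 and 139 CPM against 129 and 125 CPM (-0.34, adjusted p = 0.464). The 20 mitosis genes had a median of 0.16, among them Cenpe (136 and 131 CPM against 187 and 159.7 CPM, adjusted p = 0.366) and Ccnb2 (0.58, adjusted p = 0.516). None passed among 13 G1 cyclins and inhibitors, 15 apoptosis and survival genes, 19 stress-response and amino acid genes, 11 mitochondrially encoded protein genes, 6 E protein and Id genes or 9 thymic stromal genes. Among them were Cdkn1b (0.45, adjusted p = 0.324) and Ccnd1 (-0.84, adjusted p = 0.342) of the cell cycle, Bcl2l11 (-0.98, adjusted p = 0.186) of cell death, and Pck2 (0.59, adjusted p = 0.188) and Slc3a2 (-0.42, adjusted p = 0.338) of metabolism.

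**Figure D5:**
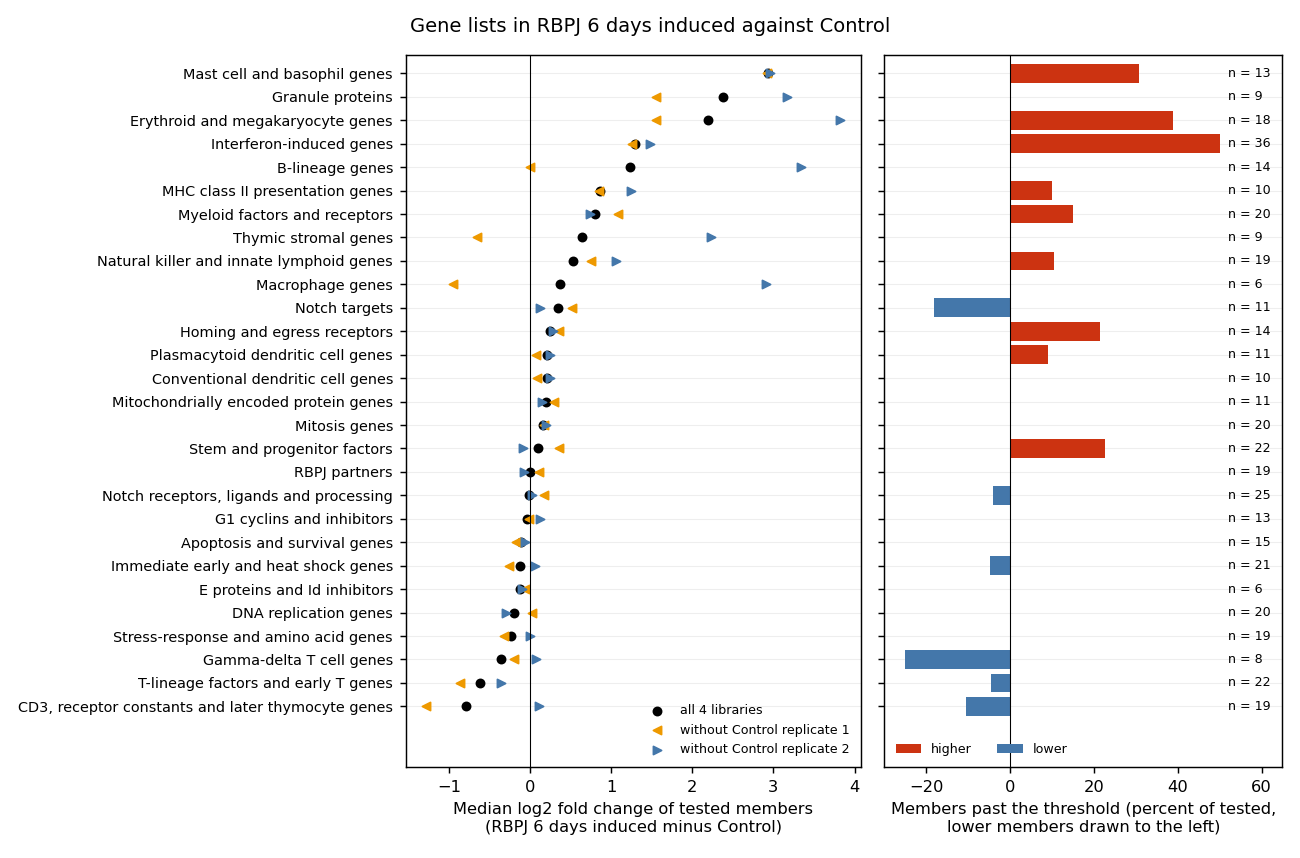
Median log2 fold change of the tested members of each gene list with all 4 libraries (circles) and without Control replicate 1 or 2 (triangles), and the percent of tested members past the threshold, higher drawn to the right and lower to the left, with the number tested as n. Of the 36 interferon-induced genes 18 are higher, and the medians of the thymic stromal, macrophage and later thymocyte lists, among others, lie on different sides of 0 depending on the Control library.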

How the data were processed

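Total RNA of sorted DN1a/b thymocytes was sequenced in 6 libraries, of which the 2 Control and 2 RBPJ 6 days induced ones were compared. The deposited values are raw read counts per Ensembl gene; the submitters' processing notes name HISAT2, StringTie, HTSeq and mm10, with no versions, and neither the counting strand nor the gene annotation is named there. Names and coordinates came from GENCODE M21 on GRCm38.

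Counts of the 4 libraries were scaled by TMM, filtered with filterByExpr (minimum count 10, minimum total 15) and tested with edgeR 4.0.16 (quasi-likelihood, R 4.3.3), with Benjamini-Hochberg adjustment over all genes tested and a threshold of 0.05. The standard error is the log2 fold change divided by the square root of F. An exact permutation test of 2 against 2 libraries cannot go below p = 0.333. CPM of the uninduced libraries used TMM over all 6 libraries.

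Genes were named by a rule: Rbpj and its pseudogene, all tested Notch targets, of each other list up to 4 members past the threshold or else 2 with the smallest p, and the extreme 10 fold changes past the threshold in each direction at an average log2 CPM of at least 2, among protein-coding genes whose groups do not overlap and whose symbol is not a clone name (Gm or Rik). Other named genes were chosen after their values were seen, list members named for their role among them. The members and lists were chosen with earlier results of these data known. Alternatives covered scaling, filter, DESeq2 1.42.0, limma-voom (limma 3.58.1), the legacy quasi-likelihood, all 6 libraries, a replicate block, each library left out and mitochondrially encoded genes left out. Beside the main fit, intervals from counts cover counting error only. Some genes the rule names are not reported here.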

Additional observations from a re-analysis of the deposited data

How the results depend on the processing

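All 181 genes kept their direction under every alternative run. No named gene changed sign where it passed in the main fit or in the alternative. Named genes that did not pass could change sign. Over the alternatives Myc ranged from -0.12 to 0.70, Hey1 from -0.21 to 0.70, Hey2 from -0.61 to 1.495 and Notch3 from -0.51 to 0.40. Against 147 higher and 34 lower genes, DESeq2 gave 270 and 146, with 144 and 34 of them among the 181. With limma-voom there were 263 and 113, with 126 and 34 among the 181. It did not call Car1, Klf1, Pf4, Ms4a2, Ncr1, Ces2g, Zg16 or Dct. The legacy quasi-likelihood gave 142 and 35, with 132 and 33 among the 181. The fit with all 6 libraries gave 49 and 6, and no low-count filter 123 and 19. Without that filter the median log2 fold change of all genes moved to -0.17. Leaving out each library in turn gave 0 to 534 higher and 0 to 279 lower genes; both 0 counts came from edgeR without an induced library, where 877 (without replicate 1) and 737 (without replicate 2) genes had an unadjusted p under 0.05. Without Control replicate 1, 113 of the 147 and 28 of the 34 genes passed again, and without Control replicate 2 all of them. The Rbpj log2 fold change lay between 1.40 and 1.49 with a library left out, and did not pass without induced replicate 1 (1.47, adjusted p = 0.548) or replicate 2 (1.41, adjusted p = 0.590). In these fits the lone library is assumed to vary like the other group, and the cause of each change was not tested. With the replicate number as a block, 58 and 10 genes passed, 55 and 9 of them among the 181. Replicate differences of the groups correlated at 0.008 over genes. As Control replicate 2 stood apart, this value cannot show whether same-numbered libraries were prepared together.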
